A study of Homo sapiens with 9 samples.

Results

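The genes described here are the 8 genes of the complex that writes N6-methyladenosine (m6A) on messenger RNA and the 2 genes of the enzymes that erase it. They were chosen by symbol, as the members of a known complex and its opposing enzymes, with earlier results of these data known, and were found in the count table through the Ensembl identifier that GENCODE gives each symbol. All 10 were present among 60649 gene identifiers, and all 10 passed the filter that left 19674 genes for testing. The core genes are METTL3 and METTL14, the associated subunits are WTAP, VIRMA, RBM15, RBM15B, ZC3H13 and CBLL1, and the erasers are FTO and ALKBH5. In build GRCh38 the core genes lie at chr14:21498133-21511342 (METTL3, minus strand) and chr4:118685392-118715433 (METTL14, plus strand). FTO lies at chr16:53701692-54158512 and ALKBH5 at chr17:18183078-18209954, both on the plus strand. The associated subunits are spread over chromosomes 6 (WTAP), 8 (VIRMA), 1 (RBM15), 3 (RBM15B), 13 (ZC3H13) and 7 (CBLL1), so that no pair of the 10 genes shares a chromosome.

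Polyadenylated RNA was sequenced from OVCAR5 cells, an established human epithelial ovarian cancer line, in 9 libraries that fall into 3 groups of 3. The NC group is the control, which the labels call parental cells while the study itself refers to a control hairpin. SM2 and SM4 are given in the labels as METTL3 knockdown, and the methods describe 2 METTL3 hairpins without tying either to SM2 or SM4. The treatment field of all 9 labels describes stable lines made with lentivirus and selected with puromycin, so the groups share that treatment unless NC was untransduced, as the word parental reads. The sources used here do not state whether a line was a clone or a pool, nor whether replicates were separate cultures, so the p-values measure the spread between these libraries, which may be technical. In the source field, the 3 SM4 replicates carry the names OVCAR6, OVCAR7 and OVCAR8, whereas the cell line field reads OVCAR5 for every library. Because METTL3 itself was higher in the SM4 libraries than in the control, SM2, SM4 and NC below are labels of libraries and nothing more, and every direction is stated between labels. Whether the labels NC and SM4 were exchanged was not tested. If they were, every difference given as SM4 against NC, the erasers and the ratios included, would have the opposite sign. SM4 against SM2 would then be the comparison of a control with a knockdown, and SM2 against NC that of 2 knockdown lines.

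m6A is placed on nascent transcripts by a nuclear complex. Within it METTL3 holds the methyl donor S-adenosylmethionine and carries out the transfer, METTL14 binds METTL3 and shapes the RNA groove without catalysing, and WTAP anchors the pair in nuclear speckles. VIRMA is the large scaffold that guides methylation toward the region near the stop codon, RBM15 and its paralog RBM15B bring the complex to RNA, ZC3H13 keeps it in the nucleus, and CBLL1 (also called HAKAI) is a RING-finger protein that stabilises it. FTO and ALKBH5 are iron- and oxoglutarate-dependent demethylases that remove the mark. Protein levels of METTL3 and METTL14 are known to depend on each other, which messenger RNA counts cannot show.

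The catalytic difference inside the core can be read in the coding sequence, and the stretches that encode it are shown because METTL3 and METTL14 are the pair whose proportion the results turn on. Capitals mark the codons of the catalytic motif of METTL3 (DPPW) and of the matching degenerate motif of METTL14 (EPPL). Both stretches are 36 bases of the sense strand of the Ensembl canonical transcript in build GRCh38. The METTL3 motif covers residues 395 to 398 of 580, and the 36 bases around it lie in exon 6 of 11 at chr14:21500593-21500628 on the minus strand. The METTL14 motif covers residues 192 to 195 of 456, and its 36 bases lie in exon 7 of 11 at chr4:118697240-118697275 on the plus strand.
METTL3: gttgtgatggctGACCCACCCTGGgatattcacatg
METTL14: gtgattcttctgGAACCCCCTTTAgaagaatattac

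Libraries held 44103272 to 63693728 counts, so that a level of 1 CPM, the count scaled to the library total with TMM factors, stood for about 44.1 to 63.7 counts. The 10 genes drew 871 to 7530 counts in a library, with a median of 3544. Counting error alone at these depths was 1.22% to 3.17% of a group's level, and the coefficient of variation between replicates ran from 0.243% to 17.4% (median 4.20%), below the counting error in 8 of 30 pairs of gene and group. SM2 replicate 3 stood apart from its group. A chi-square comparison of counts gave 16.1 and 13.4 per degree of freedom in the pairs that held it, against 4.16 to 6.01 in the other 7 replicate pairs, and the member values that it moved most are given with and without it. The epithelial identity of the cells could be read from 7 of 7 epithelial markers at 1 CPM or more in every library, with a summed level of 11244 to 13134 CPM. Leukocyte markers reached that level in 0 of 3 genes, and of 3 fibroblast markers only COL1A1 did, at 20.98 to 25.8 CPM. Of 3 Mullerian markers PAX8 and MUC16 reached it and WT1 did not (at most 0.208 CPM).

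METTL3, the gene named as knocked down, was not lower in either group labelled as knockdown. The libraries labelled NC gave 36.3, 34.4 and 36.6 CPM, those labelled SM2 gave 37.1, 39.8 and 40.01 CPM, and those labelled SM4 gave 60.6, 57.5 and 62.4 CPM. All 3 SM4 libraries lay above every other library, and all 3 SM2 libraries lay above the 3 control libraries by a small margin. The log2 fold change of SM4 against NC was 0.75 (SE 0.054, 95% interval 0.64 to 0.86, edgeR adjusted p = 2.2e-09), an increase of 68.2%. SM4 exceeded SM2 by 0.63 on the log2 scale (SE 0.054, edgeR adjusted p = 7.5e-08). For SM2 against NC the value was 0.12 (interval 0.01 to 0.24, edgeR adjusted p = 0.12), and this difference did not pass. The interval held no decrease, but it is not adjusted for the number of genes and its lower bound was small. Without NC replicate 2 the value was 0.09 (edgeR adjusted p = 0.36). A count per gene cannot tell transcript forms apart. As in any bulk sample, more cells with a transcript and more of it per cell cannot be told apart.

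TOX4, a gene on the opposite strand whose exons share 388 bases with METTL3, or 6.62% of METTL3's exon bases, bears on that value because the sources do not state whether strand was used in counting. TOX4 stood at 105 ± 2.66 CPM in NC, 100.3 ± 2.34 in SM2 and 99.8 ± 2.95 in SM4 (mean ± SD, n = 3). Its log2 fold change in SM4 against NC was -0.07 (interval -0.16 to 0.02) and was not called. The summed level of 3 endothelial markers was 5.42 to 5.85 CPM in NC, 7.79 to 8.90 in SM2 and 13.1 to 15.2 in SM4. That sum was nearly all PECAM1, as VWF and CDH5 stayed at or under 0.237 and 0.205 CPM. The order of the groups was that of METTL3, but it is the order of 1 marker and not of the set. Its relation to the METTL3 result was not tested.

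METTL14, the partner of METTL3, did not rise with it. Its libraries read 29.4, 30.6 and 30.6 CPM in NC, 31.4, 31.9 and 28.8 CPM in SM2, and 27.2, 28.2 and 27.1 CPM in SM4. The SM4 values were the lowest of the 9, without overlap with either other group, whereas NC and SM2 overlapped. The log2 fold change was -0.13 for SM4 against NC (interval -0.26 to -0.01, edgeR adjusted p = 0.12) and -0.16 for SM4 against SM2 (interval -0.28 to -0.04, edgeR adjusted p = 0.085), and neither passed. Without SM2 replicate 3, METTL14 was called in SM4 against SM2, at a log2 fold change of -0.20. It was also called there, at -0.17, with the length trend removed and the replicate block. In SM4 against NC it was called at -0.16 with the length trend removed, with or without the block. For SM2 against NC the value was 0.02 with an interval of -0.10 to 0.15.

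**Figure D1:**
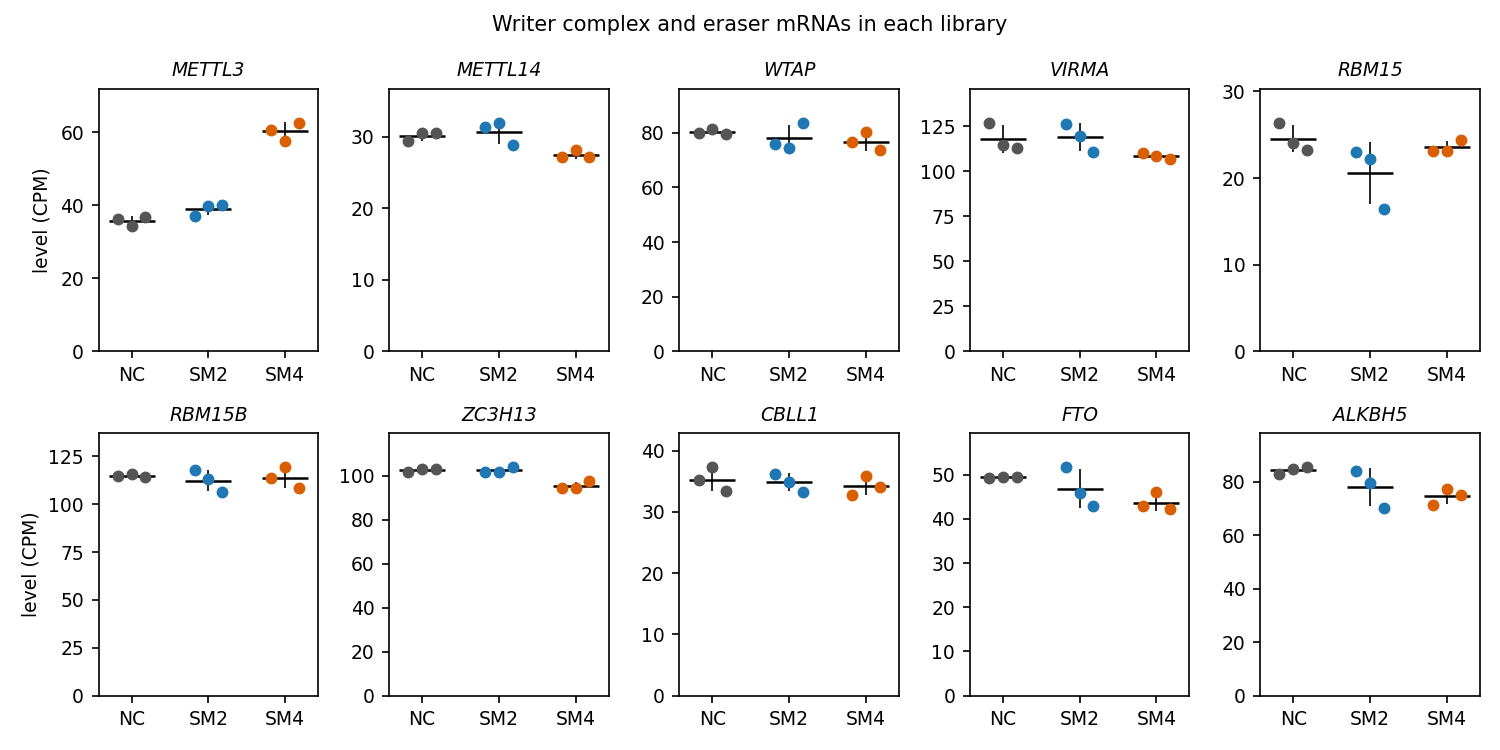
Level of each writer and eraser messenger RNA in CPM (y axis, linear from 0) in the 3 libraries of each label (x axis). Points are libraries, horizontal bars are means and vertical lines are ± SD. METTL3 at 57.5 to 62.4 CPM in SM4 stands clear of the other 6 libraries, and RBM15 and ALKBH5 show SM2 replicate 3 below its group.

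Among the 6 associated subunits none was called in any comparison of the main test. VIRMA gave 127, 115 and 113 CPM in NC, 127, 120 and 111 CPM in SM2, and 110, 108 and 107 CPM in SM4, so the SM4 libraries were the lowest, though by a narrow margin. Its log2 fold change in SM4 was -0.12 against NC (interval -0.23 to -0.01, edgeR adjusted p = 0.12) and -0.13 against SM2 (interval -0.24 to -0.02, edgeR adjusted p = 0.12). Without SM2 replicate 3 the latter was -0.18 and passed (edgeR adjusted p = 0.0075). ZC3H13 was at 102, 103 and 103 CPM in NC, 102, 102 and 104 CPM in SM2, and 94.5, 94.6 and 97.7 CPM in SM4. Again the SM4 libraries lay below all others, with a log2 fold change of -0.10 (interval -0.19 to -0.02, edgeR adjusted p = 0.084) against NC. Without SM2 replicate 3, which enters the shared estimate of spread, VIRMA and ZC3H13 both passed in SM4 against NC. Both also passed there with the 6 libraries alone and with the length trend removed, with or without the replicate block. In SM4 against SM2 both passed with the length trend removed, with or without the block, and VIRMA also with the block alone.

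RBM15 was the associated subunit with the largest spread. It gave 26.3, 24.1 and 23.3 CPM in NC, 23.01, 22.2 and 16.4 CPM in SM2, and 23.1, 23.1 and 24.4 CPM in SM4. All 3 SM2 libraries were lower than both other groups, but replicate 3 carried most of the distance. The log2 fold change of SM2 against NC was -0.26 (SE 0.093, interval -0.45 to -0.07), with an edgeR adjusted p of 0.0503 that just missed the threshold. Without SM2 replicate 3 it was -0.11. SM4 against SM2 gave 0.20 (interval 0.01 to 0.39, edgeR adjusted p = 0.18), and 0.06 without that library. Without SM2 replicate 1 it was 0.29 and passed (edgeR adjusted p = 0.049). In SM2 against NC RBM15 was called under 8 of 18 alternatives. DESeq2 called it, at a log2 fold change of -0.26, as did edgeR with no filter or with the filter at 1 CPM. It was also called with the replicate block, with the length trend removed (with or without the block), and without SM2 replicate 1 or 2. Its paralog RBM15B lay between 106 and 119 CPM in all 9 libraries and did not separate the groups, and its log2 fold changes were between -0.03 and 0.02, with bounds of -0.13 and 0.12.

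WTAP and CBLL1 overlapped between all pairs of groups. WTAP ranged from 79.5 to 81.5 CPM in NC, from 74.5 to 83.4 in SM2 and from 73.5 to 80.2 in SM4, with log2 fold changes from -0.06 to -0.02. CBLL1 ranged from 33.5 to 37.3, from 33.3 to 36.2 and from 32.8 to 35.9 CPM in the same order, with log2 fold changes from -0.04 to -0.02. For both genes every interval stayed within a log2 fold change of -0.17 and 0.11, so a change as large as that of METTL3 in SM4 lay outside them.

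The erasers were both lower in SM4 than in NC. ALKBH5 was at 82.9, 84.7 and 85.3 CPM in NC, 84.01, 79.4 and 70.2 CPM in SM2, and 71.4, 77.3 and 75.0 CPM in SM4. FTO was at 49.3, 49.5 and 49.4 CPM in NC, 51.6, 45.9 and 43.0 CPM in SM2, and 42.8, 46.0 and 42.2 CPM in SM4. For each eraser the SM4 libraries lay below all NC libraries, and the SM2 libraries spread across both. ALKBH5 fell by 0.18 on the log2 scale in SM4 against NC (SE 0.057, interval -0.30 to -0.06, edgeR adjusted p = 0.029), and FTO fell by 0.18 (SE 0.061, interval -0.30 to -0.05, edgeR adjusted p = 0.043). In percent these were falls of 11.6 for each gene. Both calls were lost when any single NC library was left out, and also without SM4 replicate 1 or 3 (adjusted p up to 0.18 for ALKBH5 and 0.17 for FTO), while the folds stayed between -0.19 and -0.14. FTO also lost its call without SM2 replicate 2 and with the size factors of DESeq2 or upper-quartile factors.

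In SM2 neither eraser passed in the main test. The log2 fold change of SM2 against NC was -0.12 for ALKBH5 (interval -0.23 to 0.003, edgeR adjusted p = 0.16) and -0.08 for FTO (interval -0.21 to 0.05, edgeR adjusted p = 0.41). SM2 replicate 3 was the lowest SM2 library for both, and without it the values were -0.04 and -0.02. ALKBH5 passed without SM2 replicate 1, at -0.17 (edgeR adjusted p = 0.033). It also passed with the length trend removed and the replicate block, at -0.16 (edgeR adjusted p = 0.031). FTO was not called under any alternative. SM4 against SM2 gave -0.06 for ALKBH5 (interval -0.18 to 0.06) and -0.10 for FTO (interval -0.23 to 0.03). Without SM2 replicate 3 these were -0.13 and -0.16 (edgeR adjusted p = 0.061 and 0.064), and without SM2 replicate 1 they were -0.0048 and -0.02. Whether the erasers differ between the groups labelled as knockdown was therefore not resolved.

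**Figure D2:**
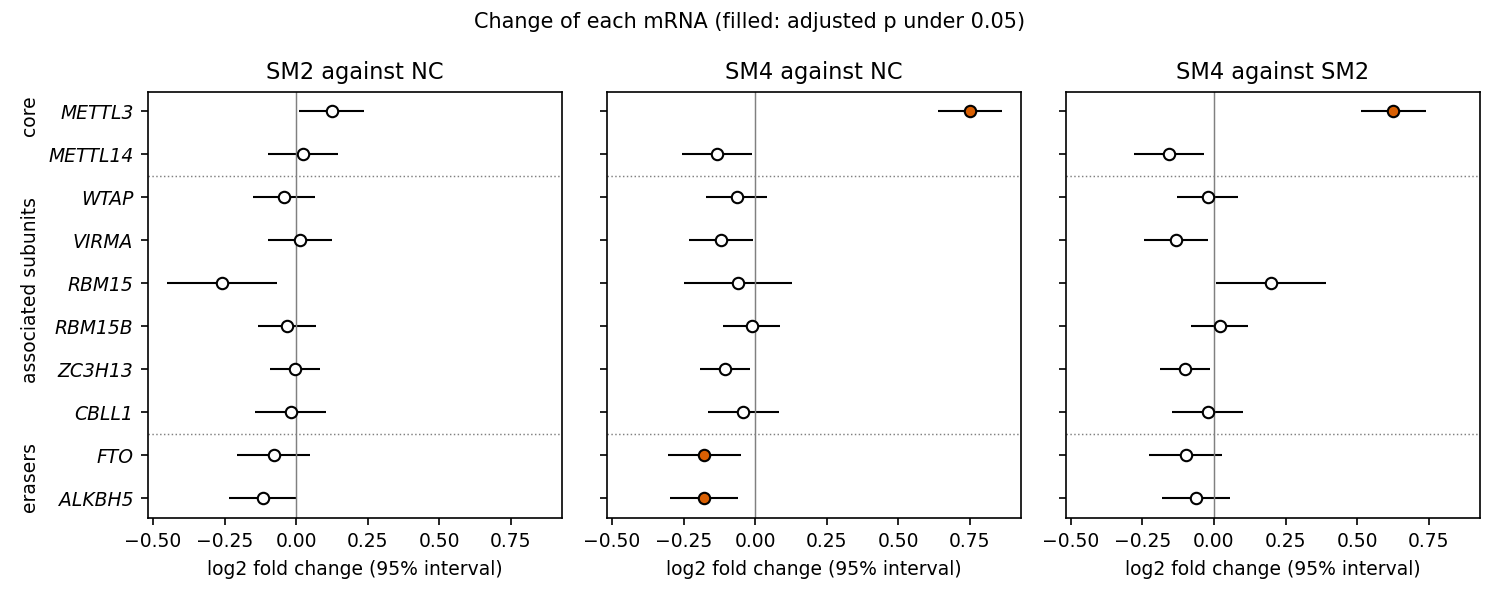
Log2 fold change (x axis) of each gene (y axis, grouped as core, associated subunits and erasers) in the 3 comparisons, with 95% intervals from edgeR. Filled points have an adjusted p under 0.05. METTL3 at 0.75 and 0.63 is far to the right in both comparisons with SM4, and FTO and ALKBH5 are filled at -0.18 in SM4 against NC.

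Counted over the complex and the erasers, 0 of 10 genes were called in SM2 against NC by edgeR, where 22.3% of all tested genes were called (12.0% higher and 10.3% lower). In that comparison 2 of the 10 had an unadjusted p under 0.05 in edgeR, beside 6487 of all 19674 tested genes. DESeq2 called 1 of the 10, beside 4481 of all those genes. In SM4 against NC, 3 of 10 were called, 1 higher and 2 lower, beside 21.2% of all tested genes (11.0% higher and 10.2% lower). In SM4 against SM2 the count was 1 of 10, higher, beside 12.8% (6.04% higher and 6.76% lower). The shares of these 10 genes were not tested against those of all genes.

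Separation of the libraries, counted with or without a call, was more common than a call. The libraries did not overlap for 2 genes in SM2 against NC (35.2% of all tested genes), for 6 in SM4 against NC (38.4%) and for 5 in SM4 against SM2 (28.3%). The 2 in SM2 were METTL3, higher, and RBM15, lower, and the 5 in SM4 against SM2 were METTL3 and RBM15, higher, and METTL14, VIRMA and ZC3H13, lower. In SM4 against NC, METTL3 was the higher gene and METTL14, VIRMA, ZC3H13, FTO and ALKBH5 were the lower ones. All 7 writer genes other than METTL3 had a log2 fold change below 0 in that comparison, from -0.13 to -0.01, with a median of -0.06, where the median of all tested genes was -0.001. That of RBM15B turned to 0.0053 with upper-quartile factors and to 0.020 without SM4 replicate 3, so that its sign is not fixed. The comparisons with NC share the control libraries.

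Levels of different genes were compared in TPM, that is, counts divided by the length of the union of a gene's exons and scaled to the same sum in every library. In NC, ALKBH5 was the most abundant at 101 ± 0.996 TPM, followed by RBM15B at 74.5 ± 0.629, WTAP at 53.8 ± 0.494, VIRMA at 47.1 ± 3.44 and ZC3H13 at 43.0 ± 0.277. Lower in the order were CBLL1 at 27.8 ± 1.36, METTL3 at 26.2 ± 1.09, RBM15 at 22.6 ± 1.64, METTL14 at 18.9 ± 0.295 and FTO at 9.92 ± 0.077 (all mean ± SD, n = 3). CBLL1 and METTL3 were the only neighbours in this order whose libraries overlapped. On this scale both genes of the core lay below 4 of the 6 associated subunits in every NC library.

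METTL3 changed its place in this order between groups. It ranked 7th of 10 in NC, 6th in SM2 at 28.4 ± 1.02 TPM, and 4th in SM4 at 44.9 ± 2.36 TPM, where its libraries overlapped those of VIRMA (44.1 ± 1.06 TPM). Among 13785 tested protein-coding genes METTL3 moved from the 55.2 to the 57.5 and the 68.2 percentile of mean TPM. METTL14 went from 47.5 to 47.7 and 45.3, and ALKBH5 from 85.0 to 83.8 and 83.3. The order itself depended on the length used. METTL3 has 5861 bases in the union of its exons but 1980 in its canonical transcript, and WTAP has 6413 against 2105. With canonical lengths WTAP led all groups and METTL3 ranked 4th, 3rd and 2nd.

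The proportions inside the core shifted toward METTL3 in SM4. The TPM ratio of METTL3 to METTL14 was 1.44, 1.31 and 1.40 in the NC libraries, 1.38, 1.45 and 1.62 in SM2, and 2.60, 2.38 and 2.68 in SM4. NC and SM2 overlapped, and SM4 lay above both. The means were 1.38 ± 0.065, 1.48 ± 0.123 and 2.55 ± 0.159 (SD, n = 3), a ratio 1.85 times that of NC in SM4 and 1.07 times in SM2. Canonical lengths gave 3.98, 4.27 and 7.35, with the same relative change, since a length cancels when the same ratio is compared between groups. The absolute balance of the pair therefore cannot be read from gene-level counts, while the relative shift between groups does not depend on the lengths.

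METTL3 took 8.35% ± 0.330 of the TPM summed over the 8 writer genes in NC, 9.23% ± 0.594 in SM2 and 13.9% ± 0.749 in SM4. The single libraries read 8.35%, 8.03% and 8.69% in NC, 8.58%, 9.38% and 9.73% in SM2, and 14.0%, 13.0% and 14.5% in SM4. METTL14 took 6.04% ± 0.217, 6.23% ± 0.220 and 5.42% ± 0.054, with the SM4 libraries below the others. Core over associated subunits was 0.168 ± 0.0060 in NC, 0.183 ± 0.0080 in SM2 and 0.239 ± 0.011 in SM4, and SM4 did not overlap either group. The sum of the associated subunits hardly differed, at 269 ± 6.55, 260.3 ± 12.7 and 262 ± 3.23 TPM, and its libraries overlapped between all groups.

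Since a share falls when another gene rises, the other 7 writers were also expressed as shares among themselves. On this scale WTAP was at 18.7%, 18.6% and 18.7% in NC, SM2 and SM4, and RBM15B, the most abundant of them, at 25.9%, 25.9% and 26.9%. METTL14 was at 6.59%, 6.86% and 6.30%, VIRMA at 16.4%, 16.9% and 15.8%, ZC3H13 at 15.0%, 15.3% and 14.6% and CBLL1 at 9.66%, 9.76% and 9.83%. In SM4 against NC the libraries of all 7 overlapped. In SM4 against SM2 those of METTL14 and VIRMA were lower and those of RBM15 higher, without overlap, and the other 4 overlapped. With canonical transcript lengths VIRMA overlapped as well, while RBM15B was higher in SM4 than in NC without overlap (16.8% against 16.2%). RBM15 was at 6.70% ± 0.993 in SM2 against 7.85% ± 0.397 in NC and did not overlap NC. Without SM2 replicate 3 its mean was 7.28%. The ratio of RBM15B to RBM15 was 3.31 ± 0.205 in NC and 3.92 ± 0.555 in SM2, with SM2 replicate 3 at 4.56 and the other SM2 libraries at 3.60 each.

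**Figure D3:**
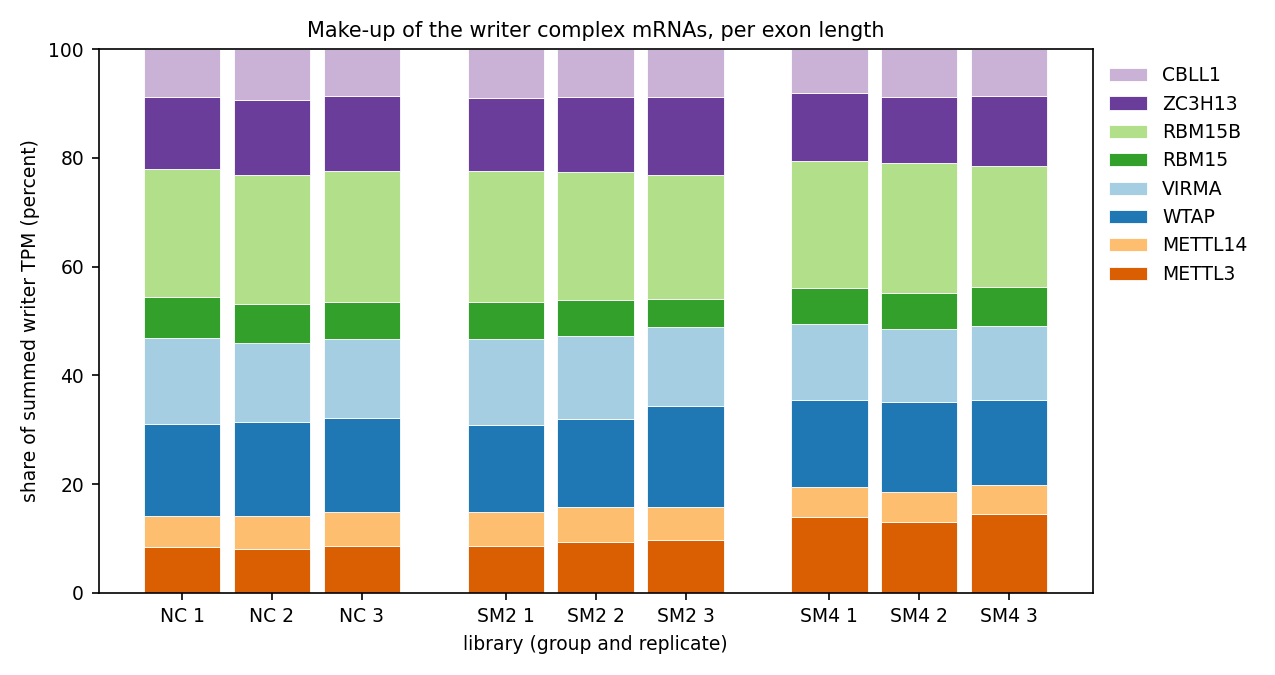
Share of each writer gene in the TPM summed over the 8 writer genes (y axis, percent) in each of the 9 libraries (x axis), stacked from METTL3 at the bottom. METTL3 takes 13.0% to 14.5% in the SM4 libraries and 8.03% to 9.73% in the others. The shares of METTL14, WTAP, VIRMA and ZC3H13 are lower in SM4 than in NC without overlap.

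The balance of writers over erasers was also higher in SM4 than in NC, by less than the ratio inside the core. Summed writer TPM over summed eraser TPM was 2.92, 2.83 and 2.77 in NC, 2.86, 2.99 and 3.26 in SM2, and 3.38, 3.19 and 3.22 in SM4. All SM4 libraries were above all NC libraries, and SM2 overlapped both. The means were 2.84 ± 0.077, 3.04 ± 0.204 and 3.26 ± 0.106 (SD, n = 3), so that SM4 was 14.9% above NC, and the SM2 mean without replicate 3 was 2.93. The writers summed to 314 ± 6.56 TPM in NC and 324 ± 2.05 in SM4, and the erasers to 110.5 ± 0.999 and 99.5 ± 2.71, and in neither sum did the libraries of the labels overlap.

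With METTL3 left out of the writers, the ratio was 2.60 ± 0.075 in NC, 2.76 ± 0.169 in SM2 and 2.81 ± 0.087 in SM4. SM4 still did not overlap NC, at 7.96% above it. Those 7 writers themselves summed to less in SM4, at 279 ± 3.38 TPM against 288 ± 6.25 in NC, narrowly without overlap. Their sum changed by -2.84% and that of the erasers by -9.97%, so the ratio was higher although these writers were not. The erasers kept their own proportion, as FTO over ALKBH5 was 0.0987 ± 0.0012, 0.101 ± 0.0034 and 0.0987 ± 0.0034 and overlapped between all groups. With canonical lengths the writer to eraser ratio was 4.05, 4.35 and 4.84. These sums treat transcripts as equal parts and say nothing of protein or of enzyme activity.

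**Figure D4:**
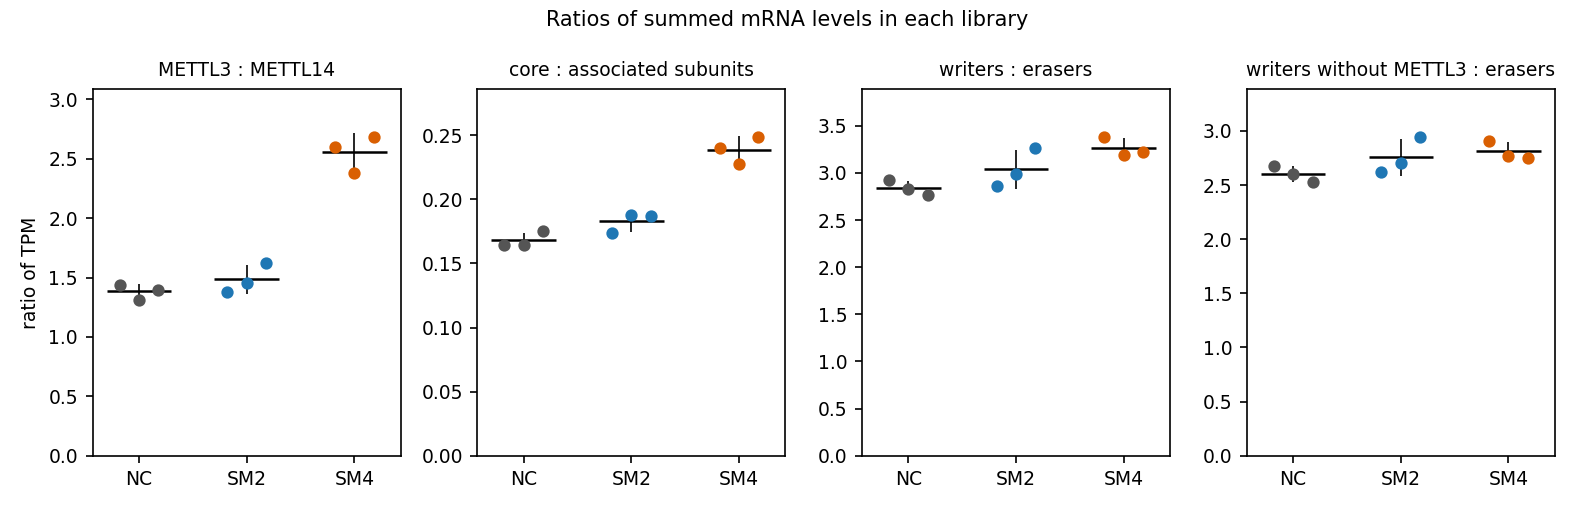
Ratios of TPM (y axes, linear from 0) in the 3 libraries of each label (x axis). Points are libraries, horizontal bars are means and vertical lines are ± SD. METTL3 over METTL14 goes from 1.38 in NC to 2.55 in SM4, and writers over erasers from 2.84 to 3.26, or from 2.60 to 2.81 with METTL3 left out.

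Genes that share exons with the others were checked because strand use in counting is unknown. DCAF1, an adaptor of a ubiquitin ligase, shares 1325 of the 6624 exon bases of RBM15B. It stood at 73.2 ± 1.01 CPM in NC, 71.7 ± 6.66 in SM2 and 73.0 ± 2.05 in SM4 and was not called. With strand use unknown, reads of RBM15B and DCAF1 cannot be told apart in the shared stretch. The antisense RNAs RBM15-AS1, CPB2-AS1 and CBLL1-AS1 and the noncoding ENSG00000266677 had group means from 0.033 to 1.18 CPM, low beside RBM15, ZC3H13, CBLL1 and ALKBH5, with which they overlap. ENSG00000280454 within FTO had 0 counts in all libraries. SOD2 shares 437 bases with WTAP and was not analysed here. The divergent transcripts METTL14-DT and VIRMA-DT and the pseudogenes WTAPP1, FTOP1 and CBLL1P1 had group means of at most 0.581 CPM.

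The writer and eraser transcripts themselves hold GGAC, the commonest core of the m6A consensus. In canonical transcripts, read on the transcript strand alone, they carried 2.26 copies per kilobase in CBLL1 to 6.96 in ALKBH5, with a median of 4.27, against a median of 3.76 over 13785 tested protein-coding genes. METTL3 holds 9 copies in 1980 bases and METTL14 holds 16 in 6642 bases. GGAC was present in all 10 and in 99.5% of all those transcripts, so its presence does not set them apart, and a match is not a methylated site. Their canonical transcripts were 1980 to 11573 bases long, with a median of 5232.5, against a median of 3302 over the same genes.

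The other genes of the pathway were taken from 5 lists with 37 genes, of which 36 passed the filter and MAT1A, a liver form of methionine adenosyltransferase, did not. In SM2 against NC 7 of the 36 were called (1 higher and 6 lower, 19.4%), in SM4 against NC 7 (1 higher and 6 lower, 19.4%), and in SM4 against SM2 6 (3 higher and 3 lower, 16.7%). Their median log2 fold changes were -0.01, -0.04 and -0.01, beside medians of all tested genes within 0.004 of 0. The called shares in total were close to the shares among all tested genes given above, but not by direction. In each comparison with NC, 1 of the 36 was called higher, beside 12.0% (SM2) and 11.0% (SM4) of all tested genes. The 6 called lower stood beside 10.3% and 10.2%, and this lean was not tested.

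Readers, which bind the methylated base, had 0 of 13 called in SM2 against NC and 2 of 13 in each comparison with SM4. FMR1, the translational repressor lost in fragile X syndrome, was at 55.5 ± 3.10 CPM in NC, 58.7 ± 4.29 in SM2 and 73.01 ± 2.43 in SM4, and rose by 0.40 on the log2 scale in SM4 against NC (SE 0.057, edgeR adjusted p = 3.0e-05). IGF2BP3, an oncofetal protein that stabilises bound transcripts, was at 111 ± 4.59, 108 ± 7.96 and 90.3 ± 0.341 CPM, and fell by 0.29 in the same comparison (SE 0.052, edgeR adjusted p = 0.00028). Of the 5 YTH-domain readers none was called.

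Among 6 genes of the other m6A methyltransferases, METTL4 and ZCCHC4 were called lower in both comparisons with NC. METTL4, which acts on a small nuclear RNA, fell by 0.33 in SM2 (SE 0.050, edgeR adjusted p = 5.1e-05) and by 0.19 in SM4 (SE 0.050, edgeR adjusted p = 0.0076). ZCCHC4, which methylates 28S ribosomal RNA, fell by 0.33 in SM2 (SE 0.074, edgeR adjusted p = 0.0022) and by 0.23 in SM4 (SE 0.073, edgeR adjusted p = 0.025). Neither differed between SM4 and SM2 by a call.

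Relatives of ALKBH5 in the AlkB family had 3 of 7 called in SM2 against NC, 1 of 7 in SM4 against NC and 2 of 7 in SM4 against SM2. ALKBH8, a transfer RNA modifier, was at 26.7 ± 1.17 CPM in NC, 20.1 ± 0.703 in SM2 and 24.5 ± 0.214 in SM4, and fell by 0.41 in SM2 (SE 0.061, edgeR adjusted p = 4.4e-05). ALKBH7, a mitochondrial member, went the other way, from 20.4 ± 1.45 to 26.1 ± 2.37 CPM in SM2, with 21.7 ± 1.17 in SM4. ALKBH2, a DNA repair enzyme, fell by 0.42 in SM4 against NC (SE 0.076, edgeR adjusted p = 0.00032).

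The cycle that supplies and clears the methyl donor had 0 of 5, 1 of 5 and 2 of 5 tested genes called in the 3 comparisons. AHCYL2, a relative of the hydrolase that removes S-adenosylhomocysteine, was at 59.5 ± 2.53 CPM in NC, 59.01 ± 3.63 in SM2 and 46.0 ± 1.10 in SM4, and fell by 0.37 in SM4 against NC (SE 0.054, edgeR adjusted p = 3.2e-05). MAT2A, the enzyme that makes the methyl donor outside liver, was 0.20 higher on the log2 scale in SM4 than in SM2 (SE 0.052, edgeR adjusted p = 0.013). The exon junction complex, which keeps methylation away from splice junctions, had 2, 1 and 0 of 5 genes called, all lower. EIF4A3, its RNA helicase, fell by 0.12 in SM2 and by 0.15 in SM4 (edgeR adjusted p = 0.029 and 0.010), and CASC3 fell by 0.21 in SM2 (edgeR adjusted p = 0.0025).

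**Figure D5:**
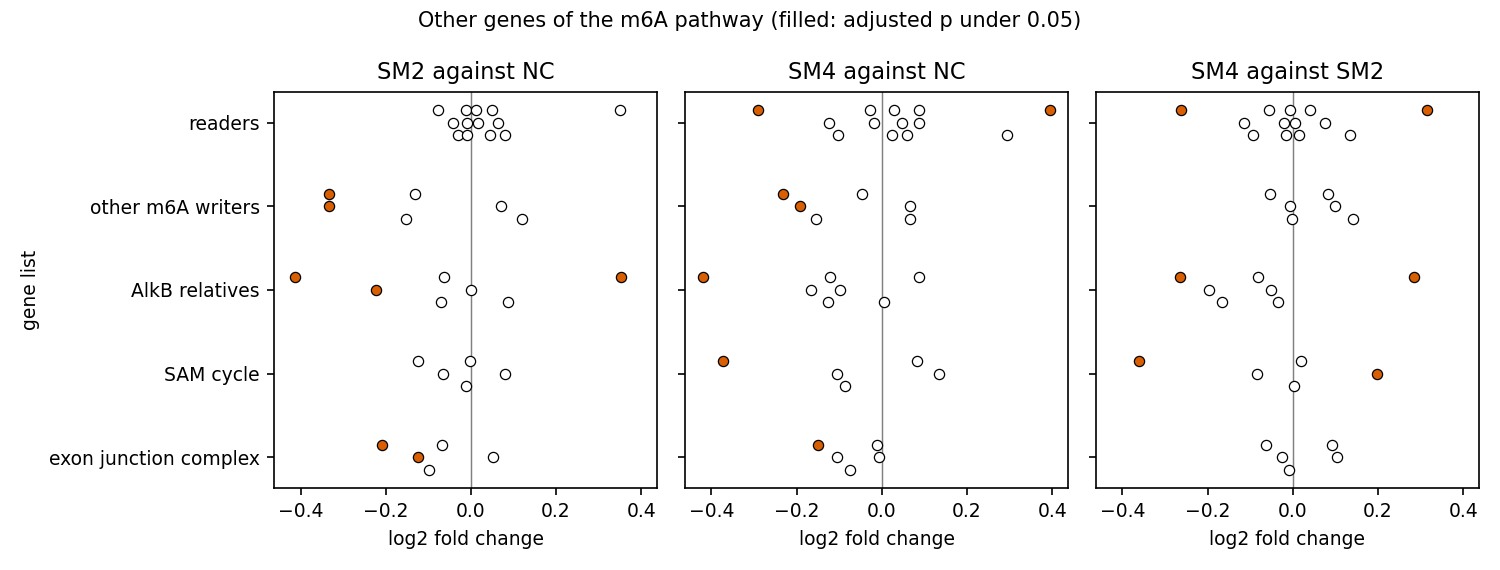
Log2 fold change (x axis) of the 36 tested genes of 5 pathway lists (y axis) in the 3 comparisons. Filled points have an edgeR adjusted p under 0.05, and vertical offsets within a list only keep points apart. The filled reader at 0.40 in SM4 against NC is FMR1 and the filled one at -0.29 is IGF2BP3.

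The pattern of METTL3 over the 9 libraries was most like that of IRF7, TMPRSS4, SH3TC1, OAS1 and IFI44 among 14412 genes with a mean of at least 1 CPM. Likeness was the root mean square difference of log2 CPM after centring each gene on its mean, and it ran from 0.083 for IRF7 to 0.097 for IFI44. IRF7 was at 38.5 ± 0.299 CPM in NC, 39.8 ± 1.88 in SM2 and 58.8 ± 2.70 in SM4. TMPRSS4 was at 100.3 ± 5.02, 107 ± 0.638 and 150.0 ± 1.62 CPM in the same order. All 5 were called higher in both comparisons with SM4 and not in SM2 against NC, as METTL3 was. They were picked for likeness over these same libraries, so the shared calls follow from the choice and are no separate result.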

How the data were processed

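Messenger RNA was measured in 9 OVCAR5 libraries. The authors deposited raw counts per gene, with no normalization. The submitters' processing notes name fastp, HISAT2, featureCounts and Subread with build hg38, and the methods of the study name FastQC, hisat2, Subread and DESeq2. Versions, annotation and strand setting are not given in the sources used here, and labels and methods name different kits (TruSeq Stranded or NEBNext Ultra II) and read layouts. The table held 0 unused columns. Of 60649 identifiers, 60463 matched GENCODE release 44 without the version suffix.

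In R 4.3.3, filterByExpr of edgeR 4.0.16 left 19674 genes and removed 40975. All 9 libraries entered a quasi-likelihood F test with group as the only term and TMM factors (0.989 to 1.01). P-values were adjusted by Benjamini-Hochberg over all 19674 genes, calls were made at 0.05, and intervals are 95%. Unless DESeq2 is named, adjusted p-values are from this test. TPM was computed here with Python 3.11.15 from union exon lengths. Sums, shares and ratios over members have no test. Alternatives were DESeq2 1.42.0, its size factors or upper-quartile factors, other filters, 6 libraries only, a replicate block, a length trend removed and each library left out. Counts carry no molecular identifiers, so counting error is a lower limit.

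Named genes were the 10 members, genes overlapping or named after them, the 5 profiles nearest METTL3, and in each pathway list up to 2 called genes with the largest change per comparison. Members and lists were chosen with earlier results of these data known.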

Additional observations from a re-analysis of the deposited data

Results flagged for a closer look

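The difference of METTL3 between the groups labelled SM4 and SM2 drew attention because both are given as knockdown of the same gene and a direct test separates them. The log2 fold change of SM4 against SM2 was 0.63 (SE 0.054, 95% interval 0.51 to 0.74), and 3 of 3 SM4 libraries lay above every SM2 library. Because METTL3 goes against the labels, the labels themselves are in doubt, and an exchange of NC and SM4 was not tested.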

How the results depend on the processing

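METTL3 kept its direction and its call or lack of one in all 3 comparisons under each of 18 alternatives, at log2 fold changes of 0.09 to 0.16 for SM2 against NC, 0.72 to 0.78 for SM4 against NC and 0.59 to 0.66 for SM4 against SM2. Counts of called members were less firm. In SM2 against NC the count of 0 became 1 with DESeq2, with no filter, with the stricter filter (mean level from 1 CPM up), with the replicate block and with the length trend removed, and 2 with the trend removed and the block. RBM15 was called in each of these, and ALKBH5 was the second gene in the last. Calls over all genes were 4389 in the main fit, and from 4296 (no filter) to 5223 (trend and block) in these settings. In SM4 against NC the count of 3 became 5 with the 6 libraries alone and 6 with the length trend removed, with or without the block. Calls over all genes in that comparison were 4173 in the main fit and 5431 with the 6 libraries alone. They were 4761 with the trend removed and 5059 with the trend removed and the block. In SM4 against SM2 the count of 1 became 2 with the block, 3 with the trend removed and 4 with both. Calls over all genes there were 2518 in the main fit and 2815, 2741 and 3013 in these settings. Leaving out each library gave 0 to 2, 1 to 5 and 1 to 3 called members. In SM4 against NC the member count was 1 whenever a library labelled NC was left out, and also without SM4 replicate 1 and without SM4 replicate 3, and 5 without SM2 replicate 3. Calls over all genes there were 2933 to 3458 when a library labelled NC was left out. They were 3069 without SM4 replicate 1, 3095 without SM4 replicate 3 and 5227 without SM2 replicate 3. In SM2 against NC the member count was 2 without SM2 replicate 1 (ALKBH5 and RBM15) and 1 without SM2 replicate 2 (RBM15). Calls over all genes were 4300 and 3535 in these settings. In SM4 against SM2 the member count was 2 without SM2 replicate 1 and 3 without SM2 replicate 3, beside 2452 and 2748 calls over all genes. The cause was not tested. Same-numbered libraries deviated from their group means with correlations of -0.053 to 0.045, and other-numbered ones with -0.065 to 0.092. Whether the replicate numbers pair the libraries was not tested.

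Canonical lengths moved the METTL3 to METTL14 ratio to 3.98, 4.27 and 7.35, the METTL3 share of writers to 14.4%, 15.8% and 22.96%, and the writer to eraser ratio to 4.05, 4.35 and 4.84 in NC, SM2 and SM4, by their construction. Small log2 fold changes that were not called changed sign. ZC3H13 in SM2 against NC became 0.0099 with upper-quartile factors, 0.0013 with the stricter filter, 0.0028 with the length trend removed and 0.0025 with the trend removed and the block. RBM15B in SM4 against NC became 0.0053 with upper-quartile factors. With each library left out, the range in SM2 against NC was -0.0071 to 0.071 for METTL14, -0.035 to 0.066 for VIRMA, -0.067 to 0.0095 for RBM15B and -0.058 to 0.021 for CBLL1. In SM4 against NC it was -0.047 to 0.020 for RBM15B. In SM4 against SM2 it was -0.056 to 0.030 for WTAP, -0.019 to 0.054 for RBM15B and -0.059 to 0.013 for CBLL1. Counting error was 1.22% to 3.17% of a group's level, and how depth limits the calls was not tested.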
